A study of Mus musculus with 4 samples.

Results

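The Wnt signalling genes described here were followed in fibroblasts of the mouse small intestine, the ligand gene Wnt4, the receptor gene Fzd2 and the secreted antagonist genes Wif1 and Sfrp1. They make up 4 of the 3891 complete gene rows of the processed expression table and were taken by name. The cells came from the small intestine of wild type C57Bl/6 mice, male and 8 weeks old by the labels, and carried no transgene or treatment. Stromal cells were sorted as gp38 (PDPN) positive, leaving out cells with CD45, EpCAM or CD31, and were profiled as 16891 droplet-captured cells in 10X library 1 (2547 cells) and 10X library 2 (14344 cells), with 739 further cells on 2 Smartseq2 plates. How many mice went into a library is not given in the sources used here. The p-values below rest on how far group differences varied between 2 libraries, which may be technical.

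Cells of the 10X libraries were assigned to groups by unique molecular identifiers (UMIs, each marking a captured RNA molecule) of 13 marker genes, none of them among the 4 genes described. A cell with a Sox6 UMI was called subepithelial (285 cells in library 1 and 2699 in library 2). Among the other cells, at least 3 of Inmt, Penk, Vit and Scara5 defined the mesothelial-like group (331 and 1107 cells), and at least 3 of Chodl, Dner, Thbs2 and Ptn the Fibin type (100 and 697 cells). A Grem1 UMI then defined the Grem1 group (1021 and 4837 cells) and an Lpl UMI the villus group (611 and 3699 cells), which left 199 and 1305 cells in no group. Subepithelial cells were also split by a Pla1a UMI (163 and 1138 positive cells) and by an Adamts18 UMI (18 and 178 positive cells).

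Markers that the rule did not use were compared with these names. In both libraries 8 of 9 subepithelial markers, 4 of 5 mesothelial-like markers and all 5 markers each of the Fibin type and of the villus group were highest in their own group. The exceptions were Tnc for the subepithelial group and Gdf10 for the mesothelial-like group. Of 5 crypt fibroblast markers, 0 in library 1 and 1 in library 2 were highest in the cells defined by Grem1, so these cells are called the Grem1 group here and not crypt fibroblasts. The rules also overlap, since 84.9% and 82.1% of subepithelial cells in libraries 1 and 2 held an Lpl UMI, and 4.91% and 17.2% a Grem1 UMI. Median depth was 8757 UMIs per cell in library 1 and 6874 in library 2, and 7 cell barcodes occurred in both.

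Wnt proteins are secreted lipid-modified ligands that bind Frizzled receptors and co-receptors, which stabilises beta-catenin or activates other branches of the pathway. In the intestine, Wnt signals from stromal cells below the crypt sustain epithelial stem cells, while fibroblasts along the villus release antagonists as well as ligands. Wnt4 is a ligand of this family, Fzd2 a Frizzled receptor, Wif1 a secreted inhibitor that binds Wnt proteins directly, and Sfrp1 a secreted protein with a Frizzled-like Wnt-binding domain.

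In the GENCODE annotation of GRCm38, Wnt4 (ENSMUSG00000036856.4) lies on the plus strand of chromosome 4 from 137277489 to 137299726 and Fzd2 (ENSMUSG00000050288.6) on the plus strand of chromosome 11 from 102604396 to 102608058. Wif1 (ENSMUSG00000020218.11) lies on the plus strand of chromosome 10 from 121033960 to 121100650, and Sfrp1 (ENSMUSG00000031548.7) on the plus strand of chromosome 8 from 23411502 to 23449632. All 4 are protein-coding genes.

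Promoter entries of RefSeq (build GRCm38.p6) matched 2 of the 4 genes, Wnt4 and Wif1, whose expression separated within the subepithelial cells as described below. The stretches printed here run from the start of the entry to the base before the annotated gene start, on the plus strand at chr4:137277385-137277488 (104 bases) and chr10:121033754-121033959 (206 bases), and overlapped 0 annotated transcripts. Capitals mark the GC box GGGCGG or its complement CCGCCC.
Wnt4: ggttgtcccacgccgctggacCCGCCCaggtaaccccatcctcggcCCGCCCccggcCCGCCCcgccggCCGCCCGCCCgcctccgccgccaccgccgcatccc
Wif1: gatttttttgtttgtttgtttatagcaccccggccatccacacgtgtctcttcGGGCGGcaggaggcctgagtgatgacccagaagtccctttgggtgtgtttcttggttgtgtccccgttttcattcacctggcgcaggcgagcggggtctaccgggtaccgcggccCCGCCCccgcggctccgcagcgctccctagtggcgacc

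The Wnt4 stretch held 5 matches of the GC box, the last pair overlapping, where 10.95% of 32851 promoter entries held at least 1 in a window of the same length. The Wif1 stretch held 2, where 25.8% of entries held at least 1. The TCF/LEF core CTTTGA or CTTTGT, searched on both strands, had 0 matches in either stretch and occurred in 13.3% and 24.0% of windows of those lengths. The SOX core ACAAT also had 0 matches, against 13.5% and 24.2% of windows. The windows compared were the first bases of each entry, matched in length but not in distance from the gene start. No enrichment is therefore read from these shares. The matches describe letters in these windows and not sites of binding.

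Wnt4, Fzd2 and Wif1 were higher in subepithelial cells than in the other fibroblasts, and Sfrp1 was lower. Levels are given as mean UMIs per 10000 UMIs of a cell. The test was limma on mean natural log values per library and group, natural log(1 + UMIs per 10000), with the library as a block and Benjamini-Hochberg adjustment over 1887 genes. It pools the spread over all groups of a fit and moderates it over genes. The standard errors given come from this estimate and differ from the spread of the library differences of a single gene. Of these genes, 69.5% differed between the subepithelial group and the mean of the other 4 groups at adjusted p under 0.05, 38.5% being higher and 31.1% lower. All 4 genes passed this test, a count to be read against that background.

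Wnt4 stood at 2.87 UMIs per 10000 in subepithelial cells of library 1 and 3.29 in library 2. In the villus group it stood at 0.922 and 1.18. Its levels were 0.0518 and 0.133 in the mesothelial-like group, 0.048 and 0.155 in the Grem1 group, and 0.00969 and 0.0959 in the Fibin type. The subepithelial values lay above those of every other group in both libraries, with the villus group second. Against the mean of the other groups the ratio was 11.1 in library 1 and 8.43 in library 2. The natural log difference was 0.94 in each library, with a mean of 0.94 ± 0.018 (standard error, n = 2 libraries; limma adjusted p = 3.31e-08). Neighbours in the order of levels were taken from 10 pairs of groups, adjusted over all genes. Between them, 49% of genes differed for subepithelial and villus cells, 41.9% for villus and mesothelial-like, 13.4% for mesothelial-like and Grem1, 63.5% for Grem1 and Fibin type, 23.2% for Grem1 and villus, 63.2% for mesothelial-like and Fibin type and 54.5% for subepithelial and Fibin type. For Wnt4, subepithelial cells exceeded villus cells (adjusted p = 7.09e-07) and villus cells exceeded mesothelial-like cells (adjusted p = 4.04e-05). The mesothelial-like, Grem1 and Fibin type groups did not differ beyond their spread (adjusted p of 0.995 and 0.488 for the neighbours in that order).

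Fzd2 was found in every group and was highest in subepithelial cells, with 5.0 and 4.72 UMIs per 10000 in libraries 1 and 2. In the other groups its level ran from 0.909 in the Fibin type of library 1 to 1.67 in the villus group of library 2. The ratio to the mean of these groups was 4.25 and 3.23, and the mean of each of them lay below the subepithelial mean in both libraries. The natural log difference was 0.95 and 0.74 (mean 0.85 ± 0.054, standard error, n = 2; limma adjusted p = 6.23e-06). Among the remaining groups no neighbours in the order villus, Grem1, mesothelial-like and Fibin type differed, with adjusted p between 0.544 and 0.944.

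Wif1 was found mostly in subepithelial cells. Its level there was 1.33 in library 1 and 0.949 in library 2. No Wif1 UMI was found in the mesothelial-like, Fibin type and villus cells of library 1, and in library 2 the level in the other groups was at most 0.0216, in villus cells. Subepithelial cells made up 11.2% and 18.8% of the cells and held 99.5% (425 of 427) and 94.97% (2341 of 2465) of the Wif1 UMIs. The corresponding shares were 56.6% and 66.7% for Wnt4, 39.1% and 47.6% for Fzd2, and 1.25% and 5.77% for Sfrp1. The natural log difference of Wif1 was 0.53 and 0.38 (mean 0.46 ± 0.028, standard error, n = 2; limma adjusted p = 5.31e-06). Wif1 passed the filter of 5% of cells only through the subepithelial group, where it is high, so it entered the test because of this difference.

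Sfrp1 differed from the other genes in the place of the subepithelial group, which was last. It was highest in villus cells (21.7 and 24.9 UMIs per 10000) and in the Grem1 group (17.99 and 22.8), lower in mesothelial-like cells (11.1 and 11.8) and the Fibin type (9.36 and 9.93), and lowest in subepithelial cells (1.71 and 4.38). The mean of the other groups was 8.80 times the subepithelial level in library 1 and 3.97 times in library 2. The natural log difference was -2.05 and -1.57 (mean -1.81 ± 0.12, standard error, n = 2; limma adjusted p = 7.02e-06). Villus and Grem1 cells did not differ beyond their spread (adjusted p = 0.81), nor did mesothelial-like cells and the Fibin type (adjusted p = 0.533). The Grem1 group exceeded the mesothelial-like group (difference 0.76, adjusted p = 0.0143, and between 0.0516 and 0.105 without the filter on low genes or on log2 values) and the Fibin type exceeded the subepithelial group (difference 1.32, adjusted p = 0.000138).

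**Figure D1:**
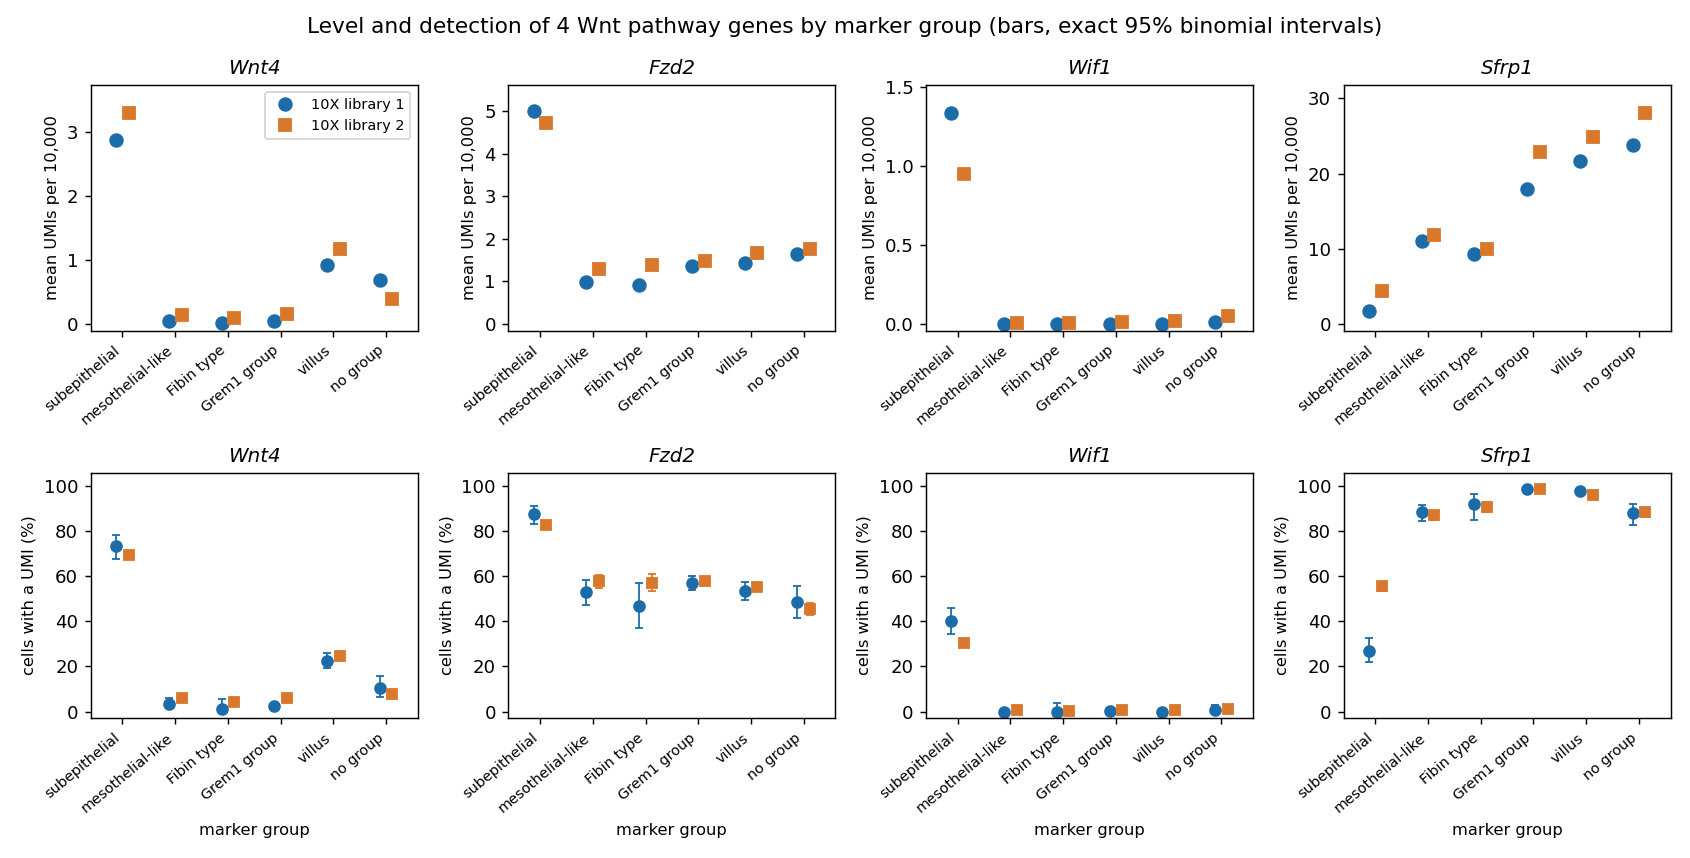
Mean level (upper row, UMIs per 10000) and share of cells with a UMI (lower row, percent, with exact 95% binomial intervals that cover counting error only) of the 4 genes in each marker group, for 10X library 1 (circles) and library 2 (squares). Wnt4, Fzd2 and Wif1 peak in subepithelial cells, whereas Sfrp1 is lowest there, at 1.71 and 4.38 against 9.36 or more in every other group.

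The share of cells with a UMI was also highest in subepithelial cells for Wnt4, Fzd2 and Wif1 and lowest there for Sfrp1. A Wnt4 UMI was found in 73.3% (exact 95% interval 67.8 to 78.4) of subepithelial cells in library 1 and 69.7% (67.9 to 71.4) in library 2, and an Fzd2 UMI in 87.7% and 82.9%. A Wif1 UMI was found in 40% (34.3 to 45.9) and 30.4% (28.7 to 32.2), and an Sfrp1 UMI in 27.0% (22.0 to 32.6) and 55.5% (53.6 to 57.4). Intervals cover counting error only. Since subepithelial cells were deeper (median 11064 and 8299 UMIs) than villus cells (7939 and 5982), each cell with enough UMIs was also thinned to 2000, which kept 283 and 2671 subepithelial and 596 and 3614 villus cells. At that depth the subepithelial shares fell to 38.2% and 40.8% for Wnt4, 56.9% and 51.6% for Fzd2, 21.6% and 14.5% for Wif1, and 14.8% and 32.0% for Sfrp1. The thinned villus shares were 11.2% and 14.7% for Wnt4, 21.0% and 27.3% for Fzd2, and 93.5% and 92.4% for Sfrp1. At equal depth subepithelial cells thus still exceeded villus cells in the shares for Wnt4 and Fzd2 and lay below them for Sfrp1.

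Free RNA in droplets can give UMIs in cells that do not express a gene. As a reference, chosen after the values had been seen, cells of library 2 with at least 3 of 10 immune genes were taken. Of these 81 cells (median 5199 UMIs), Wnt4 was found in 14.8%, Fzd2 in 22.2%, Sfrp1 in 44.4% and Wif1 in 0. In the 48 of them that met no fibroblast rule (median 4219 UMIs), a choice that favours cells with little fibroblast RNA, the shares were 6.25%, 4.17%, 16.7% and 0, the last of which allows up to 6.25%. Library 1 held 9 immune cells, too few for a share, so its groups have no reference of their own. In library 2 the Wnt4 shares of mesothelial-like (6.14%), Grem1 (6.04%) and Fibin type (4.30%) cells were at or below both references, and no expression is read from them. The Wif1 shares of library 2 outside the subepithelial group were at most 0.786% among the named groups. They lay above the 0 found in both references. They lay under the 3.70% of 81 cells and the 6.25% of 48 cells that a count of 0 allows. The references thus cannot place these shares, and no expression is read from them either. In the mesothelial-like, Grem1 and Fibin type groups, the cells of library 2 with Wnt4 nonetheless held a mean of 2.18, 1.80 and 2.1 UMIs. The maxima were 17 or fewer, and a villus cell held 7 Wif1 UMIs. Whether these UMIs came from free RNA was not tested. The Wnt4 share of villus cells (24.6%) and the Fzd2 shares of all groups of library 2 (55.2% to 82.9%) were above both references. At 2000 UMIs, Sfrp1 was found in 32.0% of subepithelial cells of library 2, against 40% of 70 immune cells and 12.5% of the 40 without a fibroblast rule. The share thus lay between the references, and no expression of Sfrp1 in subepithelial cells is read from it.

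Villus cells with a Wnt4 UMI were examined further, as the group with the next highest level of the ligand. There were 138 such cells in library 1 and 911 in library 2, of which 63.8% and 56.6% held at least 2 Wnt4 UMIs. Their Sfrp1 level was 17.1 and 18.2 UMIs per 10000, against 23.0 and 27.0 in villus cells without a Wnt4 UMI and 1.71 and 4.38 in subepithelial cells. Igfbp3, a villus fibroblast marker, stood at 8.99 and 13.3 with and 4.17 and 6.02 without a Wnt4 UMI, and at 2.11 and 2.28 in subepithelial cells. Pdgfra, the receptor gene that is high in subepithelial cells (24.7 and 25.0), stood at 3.63 and 5.89 with and 3.70 and 4.61 without a Wnt4 UMI. Adamdec1, another villus marker, stood at 134.5 and 159.5 with, 94.3 and 117.6 without and 50.0 and 56.8 in subepithelial cells. Tnc, which encodes tenascin C, stood at 6.95 and 8.07 with, 4.13 and 5.25 without and 12.04 and 12.3 in subepithelial cells. Acta2, the smooth muscle actin gene, stood at 5.53 and 6.06 with, 3.003 and 2.68 without and 26.2 and 22.5 in subepithelial cells. Bmp5, a bone morphogenetic protein ligand, stood at 1.61 and 3.01 with, 0.971 and 1.105 without and 8.32 and 9.32 in subepithelial cells. It was found in 62.3% and 61.3% of the cells with and in 44.0% and 37.9% of those without Wnt4, against 96.8% and 91.3% of subepithelial cells. The median depths were 8963.5 and 6563 UMIs with and 7534 and 5724.5 without Wnt4. Sfrp1, Tnc, Acta2 and Bmp5 levels of the Wnt4-positive villus cells thus lay between those of the other villus cells and the subepithelial cells in both libraries, and Pdgfra in library 2 only. Igfbp3 and Adamdec1 lay on the side away from the subepithelial cells in both. These values are over cells and carry no test.

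Within the subepithelial cells the 4 genes separated with Pla1a, which encodes a secreted phospholipase. Of 1928 genes tested, 16.3% differed between Pla1a-positive and Pla1a-negative cells, 11% higher and 5.29% lower, and all 4 genes were among them. Fzd2 was 6.50 and 6.59 UMIs per 10000 in positive cells and 3.001 and 3.35 in negative cells (natural log difference 0.74 ± 0.059, standard error, n = 2; limma adjusted p = 6.91e-05). Wif1 was 2.04 and 1.76 against 0.383 and 0.362, a ratio of 5.33 and 4.85 (difference 0.61 ± 0.031; adjusted p = 8.80e-06). Both genes were higher with Pla1a in each library. The summed levels of glial, epithelial and interstitial cell genes were lower with Pla1a, as given below.

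Wnt4 and Sfrp1 moved the other way with Pla1a. Wnt4 was 1.97 and 2.49 in positive cells and 4.07 and 3.87 in negative cells (natural log difference -0.33 ± 0.041, standard error, n = 2; limma adjusted p = 0.000653). A Wnt4 UMI was nonetheless found in 71.8% and 69.3% of positive and 75.4% and 69.9% of negative cells, and the mean UMI number in cells with Wnt4 was 3.09 and 3.16 against 4.88 and 4.19. Thus the levels differed more than the shares of cells with a UMI, although positive cells were also deeper (median 12114 and 9415.5 against 9446 and 7456 UMIs). At 2000 UMIs the shares were 30.7% and 33.4% against 48.3% and 46.3%. Among cells that met only the subepithelial rule, the Wnt4 difference was -0.13 (adjusted p = 0.527).

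Sfrp1 was 0.363 and 2.102 in Pla1a-positive cells and 3.50 and 6.04 in Pla1a-negative cells (natural log difference -0.55 ± 0.14, standard error, n = 2; limma adjusted p = 0.0278). This call was lost when at least 2 UMIs of Sox6, Grem1 and Lpl were required (-0.28, adjusted p = 0.268) and when groups were assigned on thinned cells (-0.22, adjusted p = 0.446). It was also lost without the library block (adjusted p = 0.0963) and without the filter on low genes (adjusted p = 0.0797). A cell with only 1 Sox6 UMI was more frequent among Pla1a-negative cells (22.1% and 31.5%) than among Pla1a-positive cells (3.07% and 9.67%), and its part in the difference was not tested.

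With Adamts18, which encodes a secreted metalloproteinase of the extracellular matrix, the pattern turned. Of 1945 genes tested, 21.5% differed between Adamts18-positive and Adamts18-negative subepithelial cells, 11.5% higher and 10% lower, and 3 of the 4 genes passed. The positive group held only 18 cells in library 1, and the summed level of the interstitial cell markers Kit and Ano1 was higher in it and those of glial and epithelial genes lower, as given below. Wnt4 was 4.71 and 4.81 UMIs per 10000 in positive cells and 2.74 and 3.18 in negative cells (natural log difference 0.55 ± 0.035, standard error, n = 2; limma adjusted p = 1.56e-05). A Wnt4 UMI was found in 94.4% and 93.3% of positive cells, at median depths close to those of the negative cells (11565.5 and 8630 against 11038 and 8264 UMIs). On the log2 scale of mean UMIs per 10000 with a pseudocount of 0.1 the Wnt4 difference no longer passed (0.67, adjusted p = 0.062).

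Fzd2 was lower in Adamts18-positive cells, at 2.13 and 1.02 against 5.19 and 4.98 (natural log difference -0.79 ± 0.11, standard error, n = 2; limma adjusted p = 0.00135). No Wif1 UMI was found in the 18 positive cells of library 1, which allows a share of up to 16.7%, and 4 of 178 cells of library 2 (2.25%) held any. In negative cells the Wif1 share was 42.7% and 32.4% and the level 1.42 and 1.01 (difference -0.48 ± 0.038; adjusted p = 5.11e-05). Here too Wif1 passed the filter only through the negative cells, where it is high. Sfrp1 did not pass (difference 0.20 ± 0.16; adjusted p = 0.421). Its mean natural log value was higher in positive cells while its mean level was lower, at 1.33 and 3.62 against 1.73 and 4.43 UMIs per 10000, so no direction is drawn.

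The combination of both markers gave 4 classes, with 163 and 1125 cells holding only Pla1a, 18 and 165 only Adamts18, 104 and 1396 neither, and 0 and 13 both. Wnt4 was 1.97 and 2.48 with only Pla1a, 3.96 and 3.75 with neither, and 4.71 and 4.92 with only Adamts18. The Fzd2 level ran in the reverse order, 6.50 and 6.64, then 3.15 and 3.63, then 2.13 and 0.963. Wif1 was 2.04 and 1.77 with only Pla1a, 0.449 and 0.403 with neither, and 0 and 0.0133 with only Adamts18. Sfrp1 did not follow this order, being highest with neither marker in both libraries (3.88 and 6.31). The 13 cells with both markers, all of library 2, held 3.42 UMIs of Wnt4, 1.78 of Fzd2 and 0.502 of Wif1 per 10000.

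**Figure D2:**
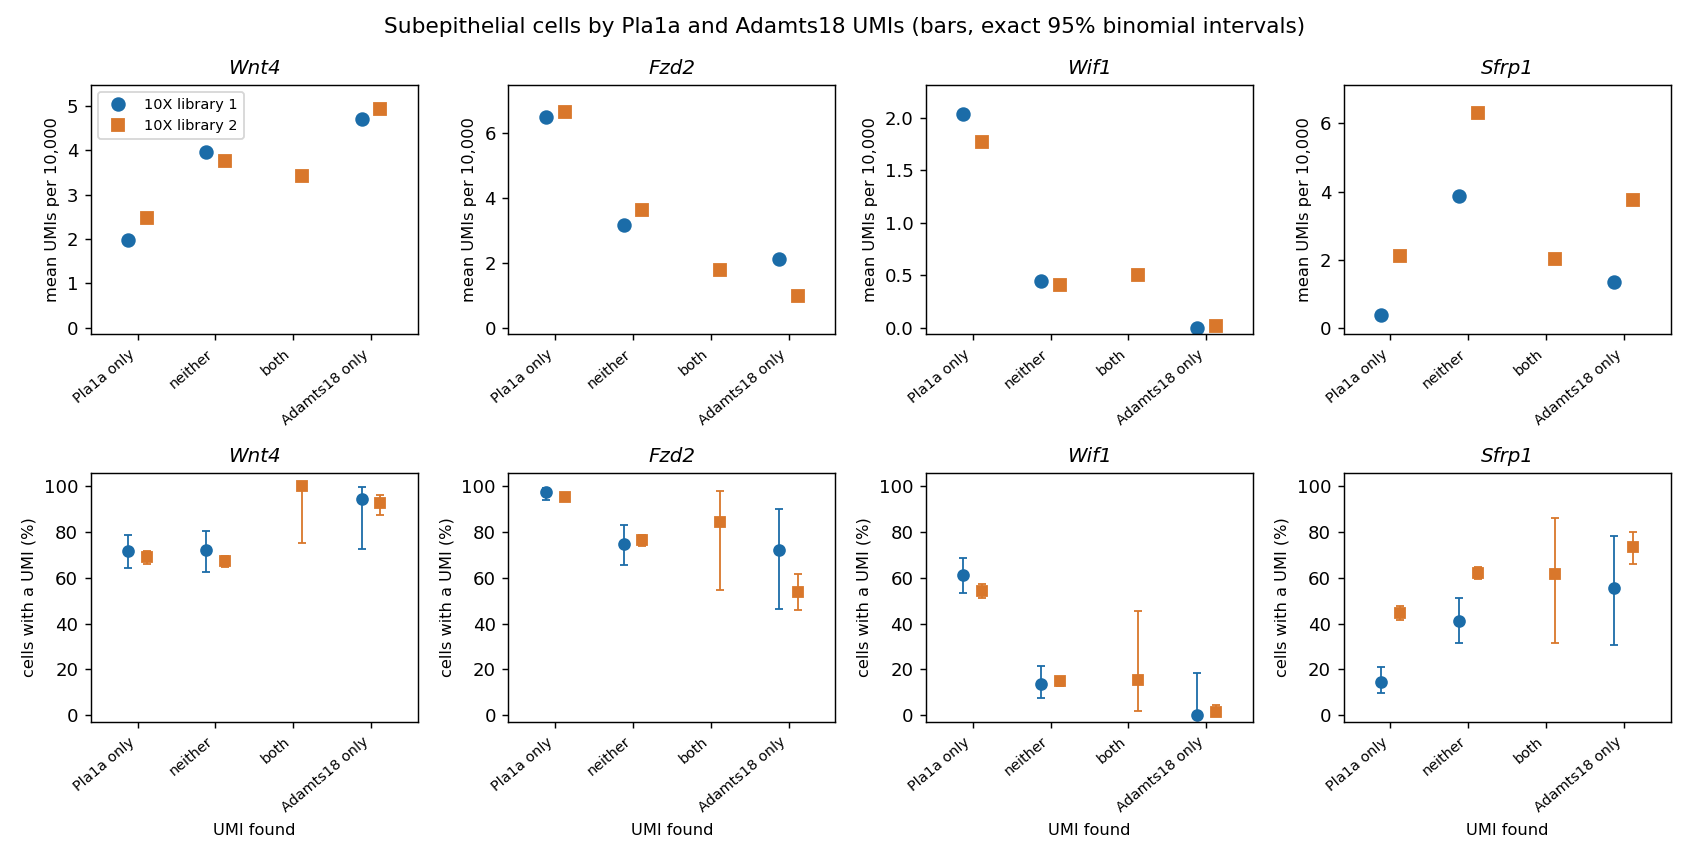
Mean level (upper row, UMIs per 10000) and share of cells with a UMI (lower row, percent, exact 95% binomial intervals) in subepithelial cells with only Pla1a, neither marker, both, or only Adamts18, for each 10X library. Wnt4 rises from 1.97 and 2.48 with only Pla1a to 4.71 and 4.92 with only Adamts18, while Fzd2 and Wif1 fall.

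The number of Sox6 UMIs in a cell, a division chosen after the values had been seen, sorted the genes in a similar way. From cells with 1 Sox6 UMI (32 and 601 cells) to those with 6 or more (155 and 752), Fzd2 went from 2.38 and 2.53 to 5.79 and 6.19 UMIs per 10000. Wif1 went from 0.243 and 0.278 to 1.73 and 1.68. Both increased at each step in both libraries. Wnt4 had no such order, with 3.63 and 2.93 at 1 Sox6 UMI and 2.44 and 2.87 at 6 or more. These levels are a description, since Sox6 defined the group and deeper cells hold more Sox6 UMIs (median 7964.5 and 7069 UMIs at 1, 12439 and 9938 at 6 or more).

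Sfrp1 fell from 11.4 and 10.9 UMIs per 10000 in cells with 1 Sox6 UMI to 1.32 and 4.02 with 2, 0.548 and 2.67 with 3 to 5, and 0.314 and 1.5 with 6 or more. For comparison, the mesothelial-like group held 11.1 and 11.8. Cells with 1 Sox6 UMI made up 11.2% of the subepithelial group in library 1 and 22.3% in library 2, and the Sfrp1 level of the whole group differed between the libraries (1.71 and 4.38). In the cells with 2 or more Sox6 UMIs, Sfrp1 was 0.485 and 2.52, so the libraries still differed. Subepithelial cells with a Grem1 UMI (14 and 465 cells) held 12.3 and 10.6 UMIs of Sfrp1 per 10000, and those without 1.16 and 3.08. Whether cells caught together in a droplet take part in these values was not tested.

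**Figure D3:**
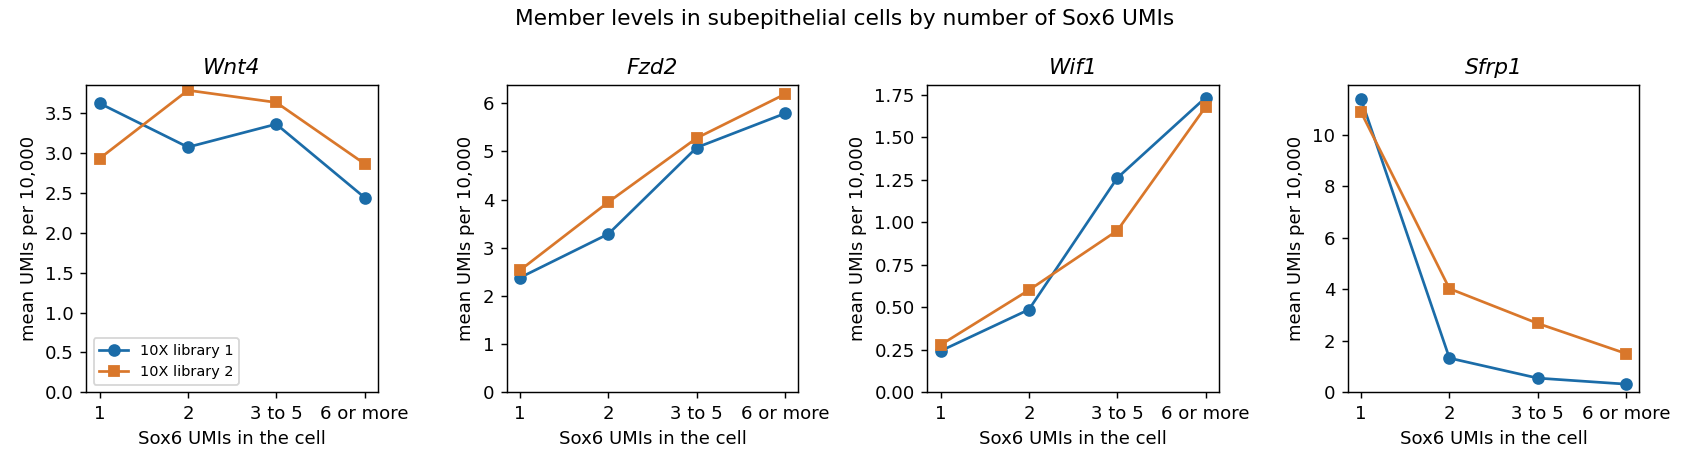
Mean level (UMIs per 10000) of the 4 genes in subepithelial cells with 1, 2, 3 to 5, or 6 or more Sox6 UMIs, for each 10X library. Fzd2 and Wif1 increase along the axis in both libraries, and Sfrp1 drops from 11.4 and 10.9 to 0.314 and 1.5.

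Within single subepithelial cells, Fzd2 and Wif1 occurred together. Of cells with a Wif1 UMI, 98.2% in library 1 and 97.7% in library 2 also held Fzd2, against 80.7% and 76.5% of cells without Wif1. The odds ratio of co-detection was 13.4 and 12.99. Cells with Wif1 were also deeper (median 11976 and 9701 UMIs) than those without (10493 and 7724). At 2000 UMIs per cell the odds ratio was 1.74 and 2.92. The Fzd2 level per 10000 UMIs, which is scaled to the depth of each cell, was 7.38 and 7.21 in cells with Wif1 and 3.41 and 3.63 in cells without.

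UMIs of Wif1 and Sfrp1 tended to be found apart, although no expression of Sfrp1 is read in subepithelial cells, as stated above. An Sfrp1 UMI was found in 11.4% and 43.0% of cells with Wif1 and in 37.4% and 61.0% of cells without, an odds ratio of 0.22 and 0.48, or 0.34 in both libraries at 2000 UMIs. Fzd2 and Sfrp1 gave odds ratios of 0.25 and 0.56 (0.64 and 0.48 at 2000 UMIs), and Wnt4 and Wif1 0.61 and 0.78 (0.74 and 0.52). For Wnt4 and Fzd2 the ratio lay above 1 with all UMIs (1.12 and 1.68) and below 1 at 2000 UMIs (0.92 and 0.75). Wnt4 and Sfrp1 gave 0.80 and 0.81 with all UMIs, and 1.41 and 0.71 at 2000. The direction for these pairs therefore depended on depth or library. Within Pla1a-positive cells alone, the ratio at 2000 UMIs was 1.62 and 1.63 for Fzd2 and Wif1, and 0.94 and 0.64 for Wif1 and Sfrp1. Cells with 1 Sox6 UMI held Sfrp1 in 68.8% and 73.5% and Wif1 in 3.1% and 9.0% of cases. Their part in the ratios with Sfrp1 was not tested. All these ratios describe cells of the same library, which are not replicates, and carry no test.

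**Figure D4:**
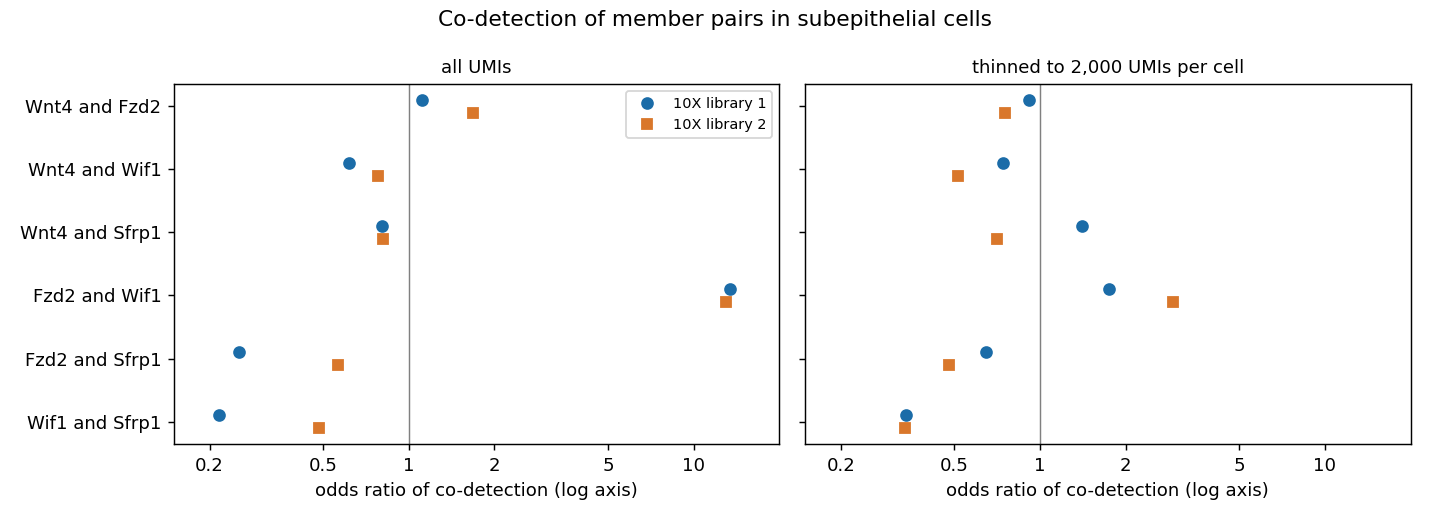
Odds ratio of co-detection (log axis) for the 6 pairs of genes in subepithelial cells, with all UMIs (left) and after thinning to 2000 UMIs per cell (right), for each 10X library. Fzd2 and Wif1 lie above 1 in all cases, and Wif1 with Sfrp1 and Fzd2 with Sfrp1 below 1.

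Most subepithelial cells held the ligand and the receptor RNA together, 64.6% in library 1 and 59.4% in library 2, close to the product of the separate shares (64.3% and 57.8%). Wnt4 and Fzd2 with neither antagonist was found in 26.0% and 17.3% of cells, with Wif1 in 24.2% and 10.8%, with Sfrp1 in 12.3% and 22.5%, and with both antagonists in 2.11% and 8.86%. None of the 4 genes was found in 1.404% and 1.408%. In Adamts18-positive cells, UMIs of Wnt4, Fzd2 and Sfrp1 without Wif1 were found in 8 of 18 cells (44.4%) and 71 of 178 cells (39.9%). At 2000 UMIs the Sfrp1 share of these cells in library 2 was 40.1%, beside the 40% of immune cells, so no expression is read from its part in these combinations. In villus cells, Fzd2 with Sfrp1 (44.7% and 41.5%) and Sfrp1 alone (31.3% and 31.3%) were the most frequent.

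The rest of the pathway was described with a list of 78 Wnt pathway genes, of which the table held 27 and 21 passed the filter. Without the 4 genes above, 17 were tested. In subepithelial cells against the other groups, 5 of the 17 were higher and 9 lower, where 38.5% and 31.1% of all genes tested were, with a median natural log difference of -0.026 beside 0.0096 over all genes tested. The ligand genes Wnt5a (0.47, adjusted p = 2.86e-05) and Wnt5b (0.051, adjusted p = 0.00981) were higher, as were Lrp4 (0.42, adjusted p = 6.76e-07), which encodes an LDL receptor family protein that modulates Wnt signalling, and Ror2 (0.28, adjusted p = 2.01e-05), a receptor for Wnt5a. The intracellular inhibitor gene Axin1 was also higher (0.055, adjusted p = 0.0204), a call that held under 6 of 11 processing alternatives. Wnt5b passed 8 of 9 that gave a test (adjusted p up to 0.466). The contrast is with the mean of 4 groups, and the subepithelial level was the highest of the 5 groups in both libraries for Lrp4, Ror2, Axin1 and Wnt5b but not for Wnt5a. Wnt5a stood at 1.95 and 2.06 UMIs per 10000 in subepithelial cells and at 2.24 and 1.84 in the Fibin type. Wnt5b was 0.194 and 0.158 in subepithelial cells, close to 0.177 and 0.143 in mesothelial-like cells.

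Among the receptors, Fzd1 (-0.47, adjusted p = 0.000134), Fzd4 (-0.24, adjusted p = 8.95e-05) and Fzd5 (-0.050, adjusted p = 0.00374) were lower where Fzd2 was higher, as was the glypican gene Gpc3 (-0.36, adjusted p = 5.49e-05). The agonist genes Rspo1 (-0.092, adjusted p = 0.000772) and Rspo3 (-0.14, adjusted p = 0.000522), whose products amplify Wnt signals, were lower. Rspo1 passed 10 of 11 alternatives (adjusted p up to 0.0857), and Fzd5 and Sfrp4 8 of 9 each (up to 0.311 and 0.0663). The antagonist genes Frzb (-0.15, adjusted p = 4.44e-05), Sfrp4 (-0.021, adjusted p = 0.0103) and Dkk2 (-0.13, adjusted p = 0.0221, passing 8 of 11 alternatives) were also lower. Sfrp4 passed the filter of 5% of cells only through the mesothelial-like group (6.34% and 8.04% of its cells). It thus entered the test because of that group, where it is high. In this contrast too the subepithelial level was not always the lowest. It was the lowest of the 5 groups in both libraries for Fzd1, Fzd5, Gpc3 and Rspo1. In the Fibin type, Rspo3 (0.105 and 0.0973 against 0.242 and 0.295 UMIs per 10000 in subepithelial cells), Dkk2 (0.184 and 0.472 against 0.67 and 1.28) and Sfrp4 (0 and 0.00233 against 0.00293 and 0.0123) were lower still. In library 2, Frzb in mesothelial-like cells (0.054 against 0.0908) and Fzd4 in the Fibin type (0.159 against 0.179) were also below the subepithelial level. Of the secreted antagonists that passed the filter on low genes, Wif1 was the one that was higher, and it passed the filter through its subepithelial share. Sfrp5 and Sostdc1 did not pass the filter and were not tested, with differences of 0.0022 and 0.017, and 0.0071 and 0.028, in libraries 1 and 2.

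In Pla1a-positive against Pla1a-negative cells, 2 of the 17 were higher and 0 lower, near the 11% and 5.29% of all genes, namely Lrp4 (0.18, adjusted p = 0.00149) and Ror2 (0.12, adjusted p = 0.0356). Lrp4 passed 7 of 11 alternatives. Ror2 passed 4 of 11 and changed direction in 1. The median difference was -0.00058, beside 0.0015 over all genes. In Adamts18-positive against Adamts18-negative cells 1 was higher and 4 lower, where 11.5% and 10% of all genes were, with a median of -0.021 beside -0.0049. Wnt5a was higher (0.85, adjusted p = 1.84e-05), at 4.75 and 5.33 UMIs per 10000 against 1.76 and 1.83. Dkk2 (-0.29, adjusted p = 0.00569), Fzd1 (-0.27, adjusted p = 0.0212), Rspo3 (-0.12, adjusted p = 0.0189) and Ror2 (-0.11, adjusted p = 0.0377) were lower, Ror2 passing 4 of 9 alternatives and Fzd1 8 of 9. The comparisons within the subepithelial cells share cells and are given side by side only.

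**Figure D5:**
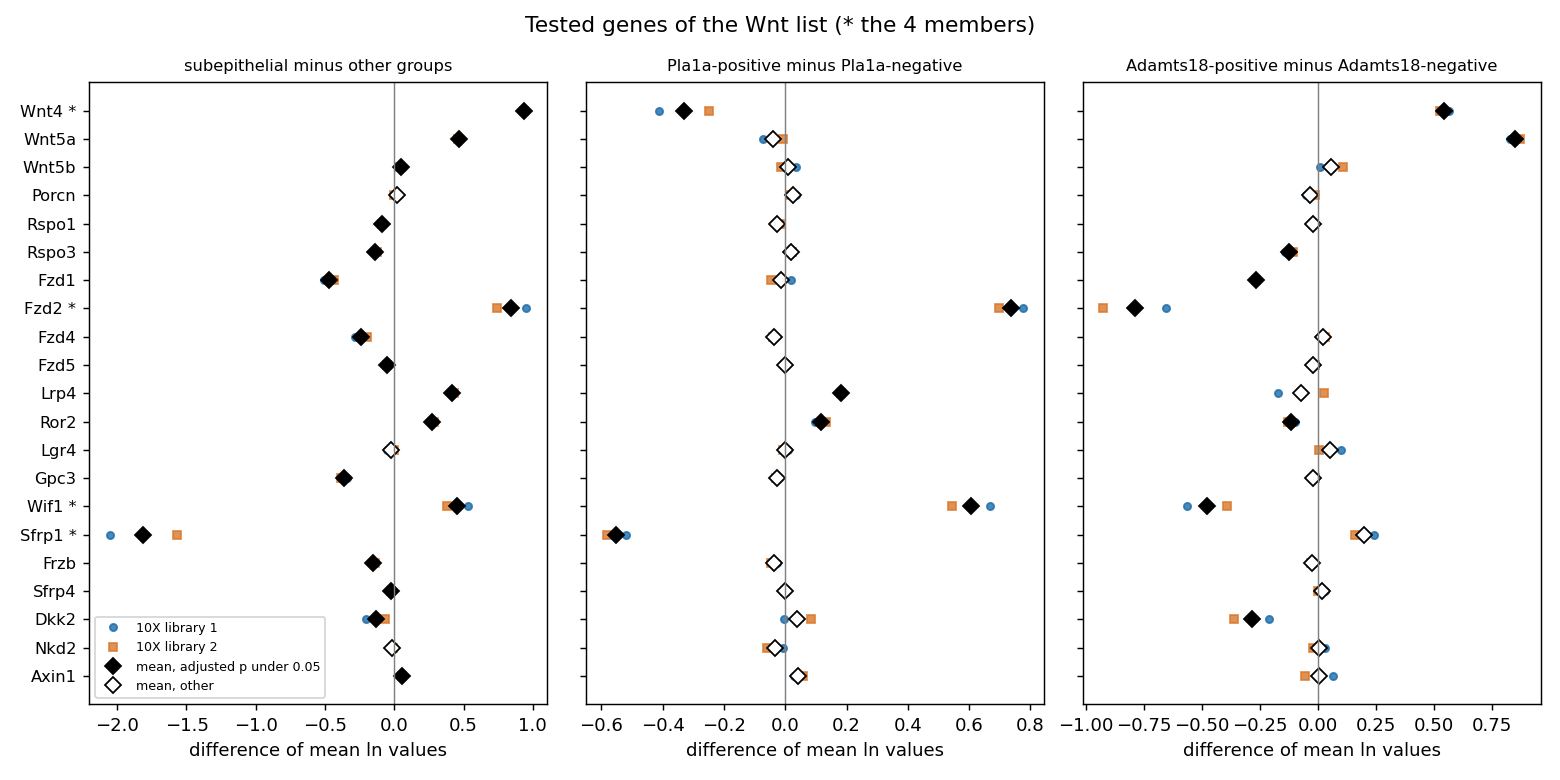
Difference of mean natural log values for the 21 tested genes of the Wnt list in 3 contrasts, with each 10X library (circles and squares) and their mean (diamonds, filled where the limma adjusted p is under 0.05). Asterisks mark the 4 genes described. In the subepithelial contrast, Wnt4, Fzd2 and Sfrp1 have the largest mean differences in absolute size, that of Sfrp1 being negative. In the Adamts18 contrast the mean difference of Wnt5a is the largest in absolute size, although Fzd2 is larger in library 2 (-0.92 against 0.87).

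For each gene the 3 genes with the most similar profile were taken from 2092 genes, by the lower of the Pearson correlations over 8 groups in library 1 and 9 in library 2 (subepithelial cells in their marker classes). For Wnt4 these were Pappa (0.99 and 0.99), Pdlim3 (0.99 and 0.99) and Pdlim1 (0.98 and 0.98). For Fzd2 they were Kcnab1 (0.99 and 0.97), Ppp1r14c (0.98 and 0.97) and Il34 (0.99 and 0.96). For Wif1 they were Dio2 (0.98 and 0.98), Pde10a (0.98 and 0.96) and Kcnab1 (0.96 and 0.97), and for Sfrp1 Hsd11b1 (0.95 and 0.96), Arap1 (0.94 and 0.94) and Fzd1 (0.93 and 0.94). Between the 4 genes, Fzd2 and Wif1 correlated at 0.95 and 0.97, Wnt4 with Fzd2 at 0.59 and 0.32, Wnt4 with Wif1 at 0.32 and 0.37, and Sfrp1 with Wnt4 at -0.82 and -0.81. The groups share libraries and the rule genes, so these values are a description.

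Markers of other cell types differed between the groups. The summed level of 6 smooth muscle genes was 5.92 and 4.65 UMIs per 10000 in subepithelial cells, with 0 of 6 genes at 0. This was the highest of the 5 groups, the others lying between 0.249 and 1.75. The list includes Des, which the paper found in its subepithelial cluster A as well as in smooth muscle cells. Its sum is therefore not a measure of smooth muscle cells alone. That of 6 glial genes was 0.165 and 1.39 in subepithelial cells and at most 0.19 in the other groups. The immune, endothelial, epithelial and interstitial cell lists each summed to at most 0.303 in subepithelial cells. Of the subepithelial cells, 3.86% and 5.22% held at least 3 of the smooth muscle genes or at least 2 genes of another of these lists. Without them, the subepithelial levels were 2.93 and 3.39 for Wnt4, 5.04 and 4.82 for Fzd2, 1.34 and 0.975 for Wif1, and 1.71 and 4.27 for Sfrp1. With Pla1a, glial genes were lower, summing to 0.0597 and 0.165 in positive and 0.306 and 2.28 in negative cells. Kit and Ano1, markers of interstitial cells of Cajal (0.0283 and 0.0266 against 0.2 and 0.173), and 6 epithelial genes (0.0698 and 0.12 against 0.123 and 0.436) were also lower. With Adamts18, Kit and Ano1 were higher, summing to 0.459 and 0.795 in positive and 0.0777 and 0.0631 in negative cells. Glial genes (0 and 0.0603 against 0.176 and 1.485) and epithelial genes (0 and 0.0176 against 0.0987 and 0.323) were lower. Without the cells holding such markers, the 4 genes kept their direction and their side of the threshold in both splits. In Adamts18-positive cells 1 of these 2 genes was at 0 in each library, so no cell was left out for this list, and its part in the Adamts18 results was not tested.

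On the Smartseq2 plates the table gives values corrected by the authors to fit the 10X cells, of which 25.1% and 26.1% were below 0, so these cells were not grouped. The mean corrected natural log value on plates 1 and 2 was 0.24 and 0.31 for Wnt4, 0.68 and 0.81 for Fzd2, 0.068 and 0.093 for Wif1, and 2.08 and 2.48 for Sfrp1. Over all 10X cells the uncorrected means were 0.22 and 0.34, 0.72 and 0.82, 0.060 and 0.080, and 2.40 and 2.47.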

How the data were processed

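The authors deposited 1 table of natural log values for 3891 complete gene rows, natural log(1 + UMIs per 10000) for 10X cells and integration-corrected values for Smartseq2 cells. The submitters' processing notes name Cell Ranger 3.1.0 and Seurat, and the build GRCm38. The members, gene lists and group rule were chosen with earlier results of these data known. UMI numbers were rebuilt from the lowest value above 0 in a cell, and 100% of 10X values were whole multiples within 0.01. The genes of the table held 23.6% and 22.6% of all UMIs. A row of 1 gene with missing values was left out. Doublets were not called, and whether they were removed before deposit is not given in the sources used here. Mean natural log values per library and group of at least 10 cells, for genes found in at least 5% of the cells of any group and outside the 13 rule genes, were tested with limma 3.58.1 (R 4.3.3, trend, Benjamini-Hochberg threshold 0.05, two-sided) with the library as a block, because all groups of a library are cells of the same sample. The named genes were the 4 members, the Wnt list and the 3 most similar genes of each member. Shares carry exact (Clopper-Pearson) 95% intervals, and a count of 0 allows 3 counts. Processing alternatives numbered 12, with leaving out a library counted once. Python 3.11.15 with numpy 2.4.6 and scipy 1.17.1 was used.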

Additional observations from a re-analysis of the deposited data

Results flagged for a closer look

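Cells that met no group rule lie outside the comparisons above, and UMIs of the 4 genes were found in them, above the limit that a count of 0 allows in all cases but Wif1 in library 1, a low bar that free RNA can pass. A Wnt4 UMI was found in 10.6% of the 199 such cells in library 1 and 7.82% of the 1305 in library 2, Fzd2 in 48.7% and 45.4%, and Sfrp1 in 87.9% and 88.4%. Wif1 was found in 1.15% of those of library 2. Against the immune references of library 2, Wnt4 lay between 6.25% and 14.8% and Wif1 under the 6.25% that 0 of 48 cells allows, so no expression of either is read from these cells. Fzd2 and Sfrp1 lay above both references (at most 22.2% and 44.4%). These cells were shallow (median 4600 and 4368 UMIs per cell), and their Sfrp1 level of 23.8 and 28.1 UMIs per 10000 stands beside 21.7 and 24.9 in villus cells.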

How the results depend on the processing

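The differences of Wnt4, Fzd2, Wif1 and Sfrp1 between subepithelial and other cells passed under all 11 alternatives that gave a test, as did those of Fzd2 and Wif1 with Pla1a (11) and Adamts18 (9). Wnt4 with Pla1a passed in 10 of 11, failing only in cells that met 1 group rule (-0.13, adjusted p = 0.527), and with Adamts18 in 8 of 9, failing on log2 values with a pseudocount of 0.1 (0.67). Sfrp1 with Pla1a passed in 7 of 11, with -0.55 but adjusted p of 0.0963 without the replicate block and 0.0797 without the filter, -0.22 with groups assigned at 2000 UMIs and -0.28 with 2 UMIs of Sox6, Grem1 and Lpl. Without the replicate block 1220, 241 and 349 genes were called, and no other call on the 4 genes changed. Sfrp1 with Adamts18 reversed on log2 values with pseudocounts of 0.1 (-0.32) and 1 (-0.23). The cause was not tested. Genes called numbered 1312, 314 and 418, and 865, 193 and 244 on thinned cells, where fewer genes passed the filter, and 806 and 56 with groups assigned at 2000 UMIs. The Pla1a calls were 212 higher and 102 lower, but 93 and 152 on log2 values with a pseudocount of 0.1, 136 and 138 with 1, 159 and 121 with 2 UMIs of the markers, and 26 and 30 with groups assigned at 2000 UMIs. The Adamts18 calls were 223 and 195, but 163 and 250 with a pseudocount of 0.1, where the median of all genes was -0.11. Pairs of neighbouring groups that did not pass reversed as follows. Wnt4 in mesothelial-like minus Grem1 cells was -0.047 and -0.011 on log2 values, -0.00078 thinned, -0.023 with groups assigned at 2000 UMIs and -0.0038 without cells above 15000 UMIs. Fzd2 in mesothelial-like minus Fibin type cells was -0.0012 (log2, pseudocount 1) and -0.0028 (thinned), and in mesothelial-like minus Grem1 cells 0.058 (1 rule). Sfrp1 in mesothelial-like minus Fibin type cells was -0.27 (groups at 2000 UMIs) and -0.10 (1 rule), and in Grem1 minus villus cells 0.13 (groups at 2000 UMIs). Sfrp1 in the Grem1 against the mesothelial-like group did not pass without the filter or on log2 values. Leaving out either library, which leaves no residual and so no test, kept the direction of the 12 differences of the 4 genes in the 3 contrasts. For Adamts18, groups assigned at 2000 UMIs and cells meeting 1 rule left under 10 cells in library 1 and could not be fitted.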
